A study of Mus musculus with 3 samples.

Results

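The genes by which red pulp macrophages of the spleen take up hemoglobin and give back its iron were followed in islet graft-bearing mouse spleens. The 8 genes were Spic, Cd163, Hmox1, Blvrb, Slc11a1, Slc40a1, Fth1 and Ftl1. They were chosen by name for their known roles, with earlier results of these data known. Every gene probe of the array annotated with these names was taken. This gave 10 of the 55679 probes measured, with 2 probes each for Hmox1 and Ftl1 and 1 for each other gene. The comparison of days asks how the iron recycling program of the spleen stood at the time of grafting, shortly after it and long after it.

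Total spleen RNA was hybridized to 3 arrays, 1 for each day. All recipients were C57BL/6J males made diabetic with streptozotocin, a toxin of beta cells, and were given syngeneic islets, 25 into the spleen and 100 beneath the kidney capsule. The day 0 spleen was taken right after grafting, the day 2 spleen came 2 days later, and the day 139 spleen came from mice whose graft-bearing kidney had been removed on day 100. The sample characteristics name the capsular graft for day 139 alone, whereas the treatment protocol gives it for all 3 samples. The day 0 spleen therefore already carried islets and had been punctured, and a spleen without islets was not analyzed here. The labels do not give the age of the mice or the number of mice behind each array. With 1 array a day there was no replicate, so no p-value was computed and each difference describes these arrays.

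Red pulp macrophages engulf aged erythrocytes and break down their hemoglobin. Spic is the Ets-family transcription factor on which these cells depend, and Cd163 is a scavenger receptor for hemoglobin bound to haptoglobin. Heme oxygenase 1 (Hmox1) opens the heme ring and releases iron and biliverdin, which biliverdin reductases such as Blvrb reduce further. Slc11a1 (Nramp1) moves divalent metals across the phagosome membrane, ferroportin (Slc40a1) exports iron from the cell, and the ferritin heavy (Fth1) and light (Ftl1) chains form the shell in which iron is stored.

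The sequences of 3 of the 10 probes are shown, because they are what the arrays read for the receptor and for the second probes of the genes that had 2. They are given 5′ to 3′ in lower case as the array files list them, and the array annotation places them on the mm9 build. The dimmer Hmox1 probe lies at chr8:77620797-77620856 on the plus strand, and its start is 966 transcript bases from that of the brighter probe (chr8:77624207-77624266). The Cd163 probe lies at chr6:124270436-124270495 on the plus strand. The dimmer Ftl1 probe lies on the minus strand at chr7:52714014-52714495, a span of 482 bases for a probe of 60, so it crosses an intron and reads spliced RNA.
Hmox1, dimmer probe: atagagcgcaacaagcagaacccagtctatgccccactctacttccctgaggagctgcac
Cd163: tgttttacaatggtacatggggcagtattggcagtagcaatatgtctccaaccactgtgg
Ftl1, dimmer probe: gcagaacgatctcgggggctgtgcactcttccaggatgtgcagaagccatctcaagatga

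Values are fluorescence signals that the scanner software corrected for background and that were then quantile normalized over the 3 arrays, which gives each array the same distribution of signals. Each of the 10 probes was well above background on all 3 arrays, and no spot was saturated. The software put the error of a bright spot at 10% of its signal, a size set by its error model, which is 0.20 on the log2 scale for a ratio of 2 such spots. Probes printed on at least 5 spots with a signal of at least 500 had a median SD between spots of 0.05 on day 0, 0.06 on day 2 and 0.05 on day 139 on the log2 scale. Neither value covers differences between mice. For the Z-score, a log2 ratio was set over the SD of such ratios among the 1000 probes with the closest mean signal. A probe was called higher at a ratio of at least 1.5 with a Z-score of at least 2, and lower at a ratio of at most 0.66 with a Z-score of at most -2.

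Spic, Hmox1 and Slc11a1 were called lower on day 2 than on day 0, and Hmox1 and Slc11a1 also on day 139. Spic was called higher on day 139 than on day 2, and Cd163, Blvrb, Slc40a1, Fth1 and Ftl1 stayed short of the criteria in each comparison. On day 2, 3 of the 8 genes were called lower than on day 0 and 0 higher, while 2.48% of the 32108 probes well above background on at least 1 array were called lower and 1.83% higher. On day 139, 2 of the 8 genes were called lower than on day 0 and 0 higher, beside 2.07% of all probes lower and 2.59% higher. From day 2 to day 139, 1 of the 8 genes was called higher and 0 lower, beside 2.54% of all probes higher and 1.59% lower. The 8 genes share their 3 arrays, so these counts describe them and are not independent trials. The comparisons share arrays as well. Calls on both later days against day 0 rest on the same day 0 array, and both calls of Spic on the same day 2 array. They were chosen by name with earlier results of these data known, so their contrast with all probes is not a test. In RNA of a whole spleen, fewer cells of a type and less RNA per cell cannot be told apart.
The median log2 ratio of the 8 genes was -0.39 for day 2 over day 0, with 6 genes lower and 2 higher, beside a median of 0.01 over all probes. It was -0.44 for day 139 over day 0, with 7 genes lower and 1 higher, beside -0.02 over all probes. For day 139 over day 2 it was -0.15, with 5 genes lower and 3 higher, beside -0.04. Scaling to the spike-in controls in place of quantile normalization raised the median of all probes to 0.35 for day 139 over day 0 and to 0.38 for day 139 over day 2. On that scale the medians of the 8 genes turned to 0.035 and 0.37, and relative to all probes they were -0.32 and -0.01, against -0.42 and -0.11 with quantile normalization.

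**Figure D1:**
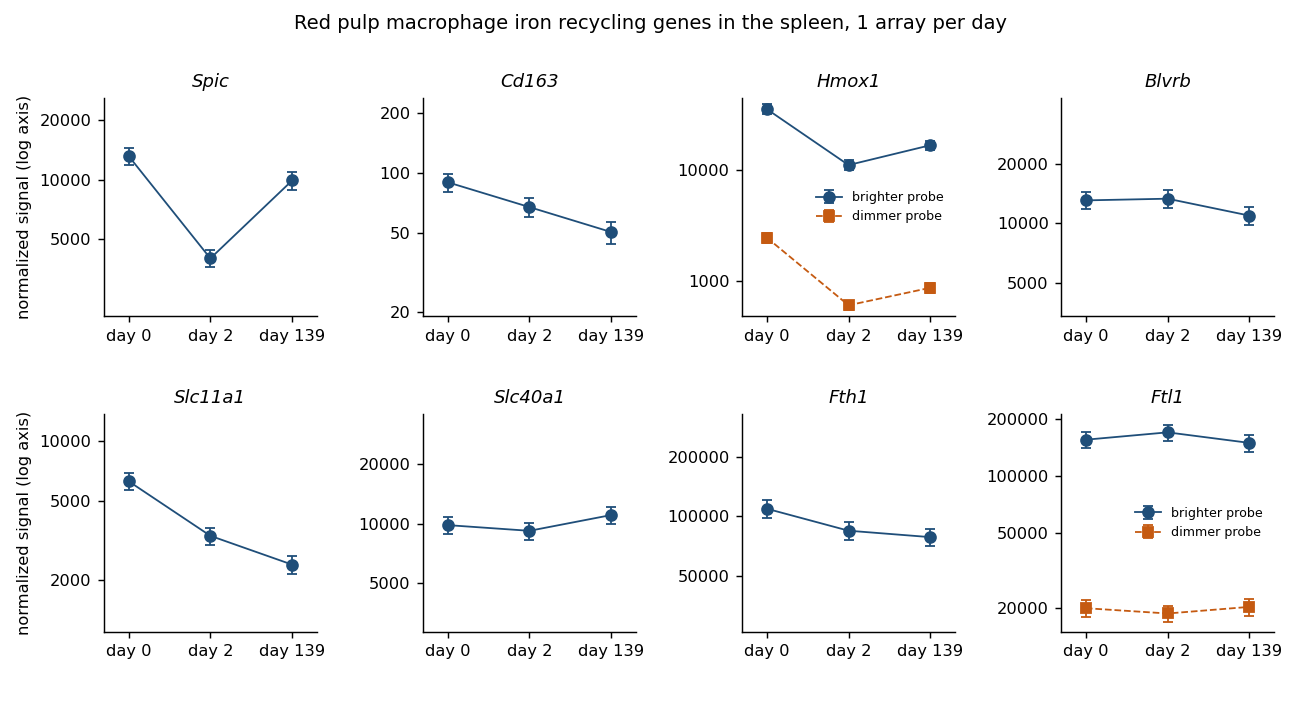
Normalized signal (log axis) of each of the 8 genes on day 0, day 2 and day 139, with 1 array a day. Points are single arrays and bars are the scanner software's error; circles and squares are the brighter and the dimmer probe of Hmox1 and of Ftl1. With quantile normalization Spic and Hmox1 were lowest on day 2, and Slc11a1, Cd163 and Fth1 were lowest on day 139. Slc40a1, Blvrb and Ftl1 differed little on this scale.

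Spic had a normalized signal of 13170.5 on day 0, 4011 on day 2 and 9906 on day 139 (chr10:88138053-88138112, minus strand). The day 2 signal was thus the low one, and the day 139 signal lay closer to day 0 than to day 2. On day 2 it was 3.28-fold lower than on day 0, a log2 ratio of -1.72 ± 0.20 (scanner error) with a Z-score of -3.43, and 624 of the 32108 probes had a lower ratio. From day 2 to day 139 it was 2.47-fold higher, a log2 ratio of 1.30 ± 0.20, and its Z-score of 2.08 was just past the limit. That Z-score was 1.95 under scaling to the 75th percentile and 1.63 with 1 SD over all probes, and the gene was then not called. Between day 0 and day 139 the log2 ratio of -0.41 had a Z-score of -0.70 and was not called, and under spike-in scaling it was -0.01. Of the 8 genes, Spic was the 1 gene called in both directions.

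Cd163 had low signals, 89.6 on day 0, 67.2 on day 2 and 50.3 on day 139. The lowest signal well above background was 12.9, 14.0 and 18.2 on these arrays, each below the Cd163 signal. Its signals were lower on each later day, though under spike-in scaling the log2 ratio of day 139 over day 2 was -0.02. The log2 ratio of day 139 over day 0 was -0.83 ± 0.24, a ratio of 0.56 that was past the ratio limit, but the Z-score was -1.19 and the gene was not called. With the normexp background correction, which adds an offset of 50 to every signal, this log2 ratio was -0.41.

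Hmox1 was lower after day 0 by both of its probes. The brighter probe gave 35150 on day 0, 11015 on day 2 and 16617 on day 139. The dimmer probe gave 2452, 603 and 867 on the same days. Both probes thus put day 0 highest, day 2 lowest and day 139 between them. On day 2 the brighter probe was 3.19-fold lower than on day 0, a log2 ratio of -1.67 ± 0.20 with a Z-score of -3.74, and the dimmer probe was 4.07-fold lower, with a log2 ratio of -2.02 and a Z-score of -4.64. On day 139 the brighter probe was still 2.12-fold below day 0, with a log2 ratio of -1.08 and a Z-score of -2.09, and the dimmer probe 2.83-fold below it, with a Z-score of -2.64. These 2 probes differed in size by 0.35 on day 2 and by 0.42 on day 139, more than the scanner error of 0.29 for such a difference. The value of the brighter probe for day 139 lay near the limit, and under spike-in scaling its log2 ratio was -0.70 with a Z-score of -1.31, and that of the dimmer probe was -1.09 with a Z-score of -1.89, each short of the criteria. With 1 SD over all probes neither probe was called for day 139, at Z-scores of -1.29 and -1.79, and with a window of 250 probes the Z-score of the brighter probe was -1.74. From day 2 to day 139 the brighter probe was 1.51-fold higher with a Z-score of 1.13 and was not called.

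Blvrb, which works after heme oxygenase in the same pathway, had signals of 13041, 13298 and 10926 on days 0, 2 and 139 (chr7:28250944-28251000, plus strand). Its day 2 signal differed from day 0 by 0.03 on the log2 scale, within the scanner error. The day 139 signal was the lowest, with a log2 ratio of -0.26 to day 0 and a Z-score of -0.43, and under spike-in scaling the sign turned, to 0.14. Of the other enzymes of this step, Hmox2, the constitutive heme oxygenase, had log2 ratios of 0.27 and 0.29 on days 2 and 139 over day 0, and Blvra had -0.22 and -0.41, and neither was called.

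Slc11a1 had signals of 6294 on day 0, 3340 on day 2 and 2391 on day 139 (chr1:74432161-74432220, plus strand). Unlike Spic and Hmox1, it was lowest on day 139 rather than on day 2 with quantile normalization. It was 1.88-fold lower on day 2 than on day 0, a log2 ratio of -0.91 ± 0.20 with a Z-score of -2.20. On day 139 it was 2.63-fold lower than on day 0, a log2 ratio of -1.40 ± 0.20 with a Z-score of -2.38. The further difference of -0.48 between day 2 and day 139 exceeded the scanner error but was not called. Under spike-in scaling that difference was -0.07, within the scanner error, so the lowest day depended on the scaling. Under 75th percentile scaling the Z-score for day 2 was -1.98, short of the limit, and under spike-in scaling the log2 ratio of day 139 over day 0 was -0.98 and was not called. With 1 SD over all probes neither day was called, at Z-scores of -1.36 and -1.67.

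Slc40a1, the iron exporter, had signals of 9820.25, 9192 and 11039.9 on days 0, 2 and 139 (chr1:45965255-45965314, minus strand). The 3 signals lay within a factor of 1.201 of each other. The log2 ratio was -0.10 for day 2 over day 0, or 0.03 under 75th percentile scaling, and 0.17 for day 139 over day 0, each within the scanner error of 0.20, and 0.26 for day 139 over day 2, with a Z-score of 0.45. In that order the day 2 and day 0 signals did not differ beyond the error, nor did those of day 0 and day 139. Under spike-in scaling the differences to day 139 exceeded the error, with a log2 ratio of 0.56 to day 0 and 0.58 to day 2, and neither was called.

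No ferritin probe was called. Fth1 gave 109399 on day 0, 84756 on day 2 and 78661 on day 139 (chr19:10059485-10059544, plus strand), and its day 0 signal was the highest. Its log2 ratio was -0.37 for day 2 over day 0, with a Z-score of -1.06, and -0.48 for day 139 over day 0, with a Z-score of -1.05, and the latter turned to 0.08 under spike-in scaling. The brighter Ftl1 probe (chr7:52713309-52713368, minus strand) gave 155749, 170359 and 149795 on days 0, 2 and 139. The probe across the intron gave 19981, 18735 and 20308. The brighter probe was highest on day 2 and the other lowest on day 2, and each log2 ratio of either probe was within the scanner error, from -0.19 to 0.13, while under spike-in scaling the brighter probe stood at 0.47 for day 139 over day 0 and at 0.32 for day 139 over day 2. Ferritin light chain has near-identical copies in the genome, and signal of such copies could not be told apart from that of Ftl1. A ferritin light chain-like transcript on the array, LOC434624, gave 12053, 11331 and 11338, and the probes for the mitochondrial ferritin Ftmt and for Fthl17 were not well above background on any array.

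**Figure D2:**
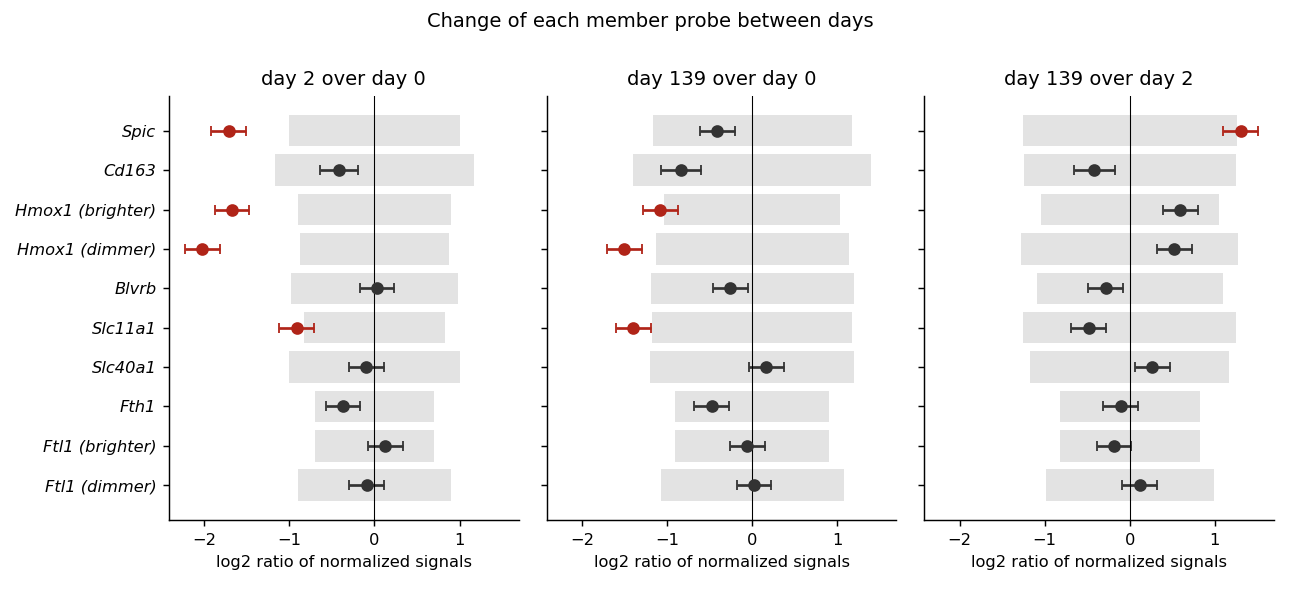
Log2 ratio of normalized signals of each of the 10 probes for day 2 over day 0, day 139 over day 0 and day 139 over day 2. Points are single ratios, bars are the scanner error, gray bands span 2 SDs of the 1000 probes nearest in signal on either side of 0, and red points were called. Spic, Slc11a1 and both Hmox1 probes lay beyond the band for day 2 over day 0, and the probes of Blvrb, Slc40a1 and the ferritins lay inside it in each panel.

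The genes differed in how far their signal ranged over the 3 arrays. The distance from the lowest to the highest log2 signal was 1.72 for Spic, 1.67 and 2.02 for the probes of Hmox1, and 1.40 for Slc11a1. Of the 32108 probes, 91.7% had a smaller range than Spic and 88.4% a smaller range than Slc11a1. At the other end the range was 0.28 for Blvrb, 0.26 for Slc40a1 and 0.19 and 0.12 for the probes of Ftl1. The median range of all probes was 0.50, and 24.1% of probes ranged less than Blvrb and 21.5% less than Slc40a1. Cd163, with a range of 0.83, lay between these genes, and Fth1, at 0.48, was close to the median.

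**Figure D3:**
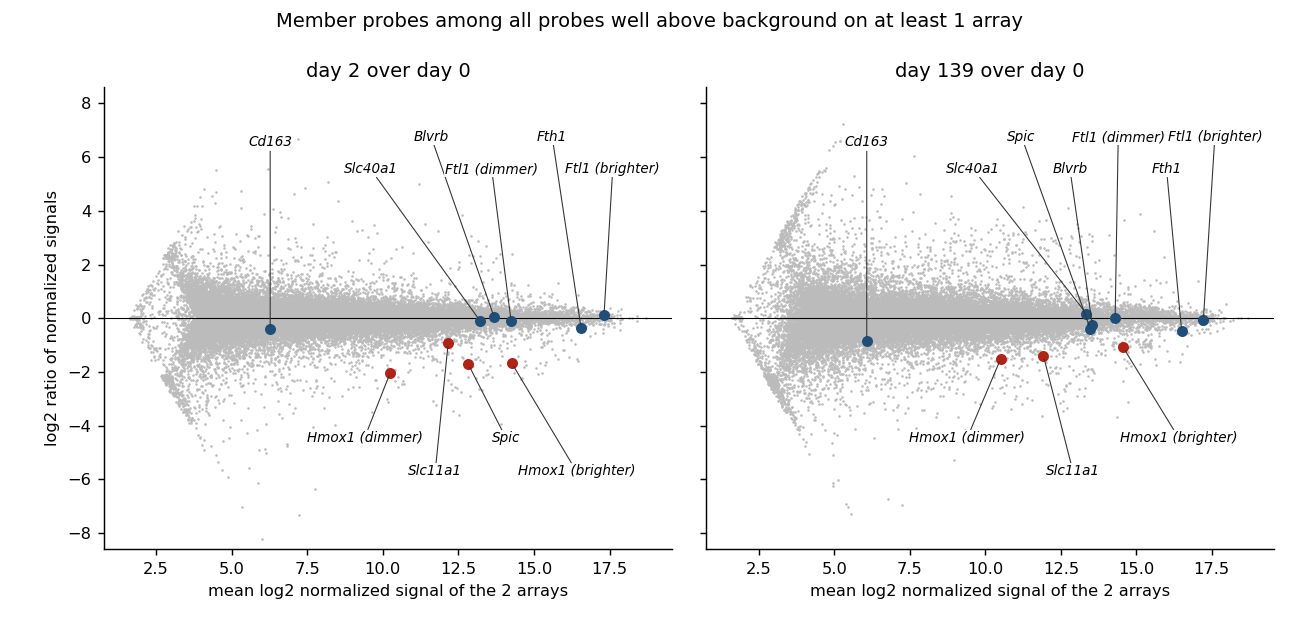
Log2 ratio against the mean log2 normalized signal of the 2 arrays for the 32108 probes well above background on at least 1 array (gray), for day 2 over day 0 (left) and day 139 over day 0 (right). The 10 probes of the 8 genes are marked, red where called and blue otherwise. The called probes lay below most probes of like signal, while the probes of Blvrb, Slc40a1 and Ftl1 lay near 0.

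The labeled tissue held macrophages by their markers on each array. All 18 red pulp and tissue macrophage markers were well above background on all 3 arrays, and none was called in any comparison. Their median log2 ratio was 0.06 for day 2 over day 0 and -0.15 for day 139 over day 0, and the latter was 0.26 under spike-in scaling. Vcam1, the adhesion molecule of red pulp macrophages, gave 27025, 31152 and 26228 on days 0, 2 and 139. Emr1, which encodes F4/80, gave 2265, 3825 and 3548, a log2 ratio of 0.76 on day 2 with a Z-score of 1.83. Csf1r, the receptor for the macrophage growth factor, gave 30569, 30188 and 33411. Over the 18 markers, 9 were higher and 9 lower on day 2 than on day 0, with 2 past the upper ratio limit and 3 past the lower, from -0.70 to 0.76 on the log2 scale. On day 139, 8 were higher and 10 lower than on day 0. Of these, 1 was past the upper ratio limit and 4 past the lower, from -0.94 to 0.65. Among the 18 markers the largest absolute log2 ratio was that of Emr1 for day 2 over day 0, and that of Fcgr1, the high-affinity Fc receptor, at -0.84 for day 139 over day 2.

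Some markers of other myeloid cells were lower on the days when Hmox1 and Slc11a1 were, and others were not. Of the 12 neutrophil markers, 5 were called lower on day 2 than on day 0 and 0 higher (S100a8, S100a9, Retnlg, Mmp8 and Cxcr2), and these with Mmp9 were called lower on day 139. In all, 8 of the 12 were lower and 4 higher on day 2, and 7 were lower and 5 higher on day 139. The summed signal of the 12 markers was 268659 on day 0, 117528 on day 2 and 123259 on day 139, and all 12 were well above background on each array. Mmp8, the neutrophil collagenase, gave 3033 on day 0, 140 on day 2 and 135 on day 139. The granule genes of neutrophil precursors Mpo, Elane, Camp and Ngp were not called, with log2 ratios from 0.01 to 0.50 for day 2 over day 0. Of the 9 monocyte markers 8 were on the array, and their summed signal was 66564, 44654 and 31090 on days 0, 2 and 139. Of these 8, F13a1 and Chi3l3 were called lower and Cx3cr1 higher on day 2, and on day 139 F13a1, Fn1 and Chi3l3 were called lower and Cx3cr1 higher. With quantile normalization the order of the summed monocyte signal, highest on day 0 and lowest on day 139, was that of Slc11a1, Cd163 and Fth1. That order of the genes depended on the scaling. Under spike-in scaling the log2 ratio of day 139 over day 2 was -0.07 for Slc11a1 and -0.02 for Cd163, within the scanner error, and 0.41 for Fth1. Slc11a1 is known from neutrophils and monocytes as well as macrophages, and the part of these cells in the values of Slc11a1 and Hmox1 was not tested.

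Erythroid, lymphocyte and beta cell markers were read in the same way. The 15 erythroid markers on the array had a median log2 ratio of 0.02 for day 2 over day 0, with 0 called, and of -0.53 for day 139 over day 0, with Rhag alone called, at -1.14, and that median was -0.11 under spike-in scaling. On day 2, Epb4.2 stood farthest from day 0 among them, at -0.72. The probe of Hba-a1 held the top rank on each array, where quantile normalization leaves no difference to see. The median of the 10 B cell markers was 0.14 for day 2 over day 0 and 1.103 for day 139 over day 0, with Fcer2a called higher on day 2, at 0.90, and 6 called higher on day 139, with Blk at 1.94 the largest. The median of the 10 T cell markers was 0.29 on day 2 and 0.83 on day 139. Of these, 9 were higher on day 2 with 0 called and Il7r stood at -0.73, and Cd247 was called higher on day 139, at 1.60. Of the 8 beta cell markers 6 were detected, and 4 of these were called higher on day 2 than on day 0, with Chgb at 3.48 the largest. The median of the 6 was -0.60 for day 139 over day 0, with 4 lower, 2 higher and 0 called. For day 139 over day 2 that median was -2.72, with all 6 called lower. Of the 6, 4 were well above background on all 3 arrays, and their median was -2.02. The part of these shifts in the values of the 8 genes was not tested.

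The iron genes outside the 8 were read from a list of 38 genes for uptake, heme handling, storage, export and mitochondrial iron. Of these 35 were on the array and 30 were detected. For day 2 over day 0, 4 of the 30 were called lower and 0 higher, with a median log2 ratio of -0.11. For day 139 over day 0, 2 were called lower and 1 higher, with a median of -0.12 that turned to 0.27 under spike-in scaling. For day 139 over day 2, 1 was called lower and 1 higher, with a median of -0.10 that turned to 0.26. Over all probes, 2.48% were called lower and 1.83% higher for day 2 over day 0. These shares were 2.07% and 2.59% for day 139 over day 0, and 1.59% and 2.54% for day 139 over day 2.
The largest decreases of the list were in proteins that bind hemoglobin or iron outside the cell. Haptoglobin (Hp), the plasma carrier of free hemoglobin that neutrophils also store, gave 15399.5 on day 0, 3339 on day 2 and 2695 on day 139, and was called lower on both later days, with log2 ratios of -2.21 and -2.51. Lipocalin 2 (Lcn2), which binds bacterial iron carriers and is a neutrophil granule protein, gave 9597, 2346 and 1739 and was called lower at -2.03 and -2.46. Both are known neutrophil products, and 5 of the 12 neutrophil markers were called lower on day 2 and 6 on day 139, while 4 and 5 of the 12 were higher; their part in the values of Hp and Lcn2 was not tested. Lactoferrin (Ltf), a further neutrophil iron-binding protein, was not lower, with log2 ratios of 0.35 and 0.45.
Ceruloplasmin (Cp), the ferroxidase that works with ferroportin, gave 1632 on day 0, 635 on day 2 and 968 on day 139 and was called lower on day 2, at -1.36. Its order of days was that of Spic and Hmox1, but few orders are possible with 3 arrays, so this match describes these signals only. Heph, the related ferroxidase, had the highest log2 ratio of the list on day 2, 0.65 from signals of 35.2 and 55.1, with a Z-score of 0.96. Fbxl5, an iron sensor that marks an iron regulatory protein for breakdown, gave 594, 311 and 330 and was called lower on day 2, at -0.93.
Among uptake genes the transferrin receptor Tfrc gave 3961, 2824 and 2072 and was not called, with a log2 ratio of -0.94 and a Z-score short of the limit for day 139 over day 0. Cybrd1, a ferric reductase, gave 25.7, 27.3 and 119 and was called higher on day 139, 4.62-fold over day 0 and 4.34-fold over day 2. Steap3, the ferric reductase of erythroid endosomes, gave 1034, 1343 and 541 and was called lower for day 139 over day 2, at -1.31. Bmp6, a ligand that drives hepcidin, gave 82.6, 78.6 and 165 and was not called. Slc39a8, a transporter of zinc and iron, and Lrp1, the receptor for heme bound to hemopexin, were not called either, with the next highest log2 ratio on day 2 (0.38) and the next lowest for day 139 over day 2 (-0.78). Slc48a1, which carries heme out of the phagolysosome, gave 4271, 5018 and 5917, and was not called. Ncoa4, which delivers ferritin for breakdown, gave 7180, 5575 and 8457, and was not called either.

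**Figure D4:**
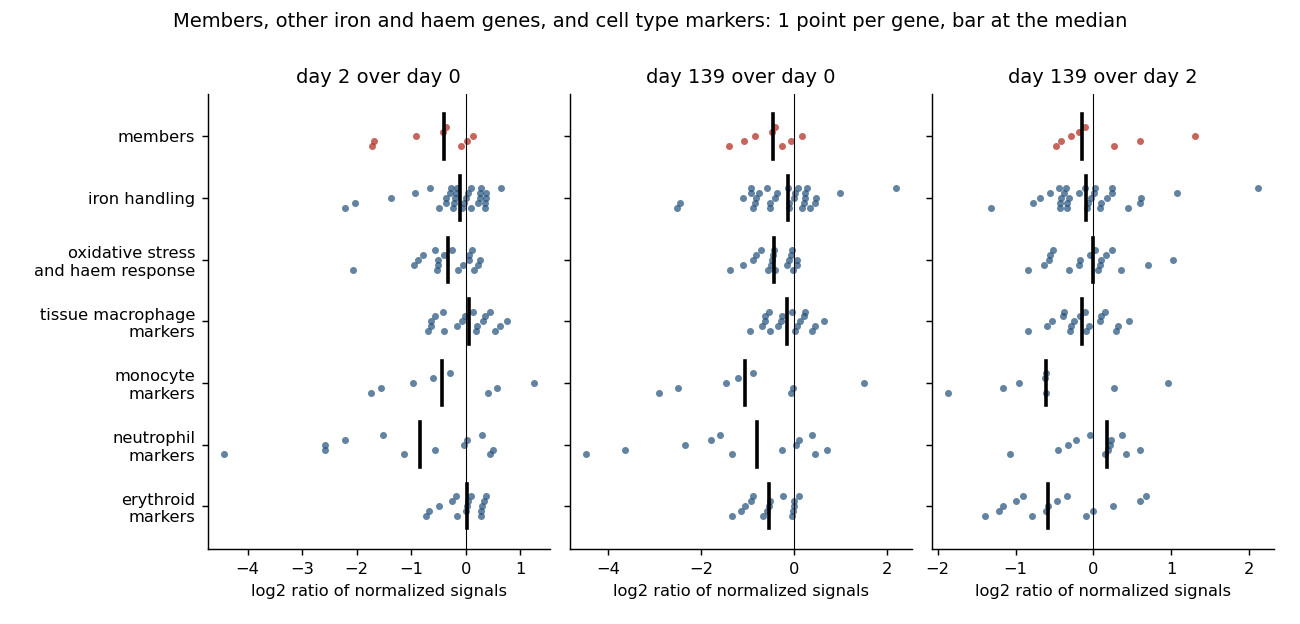
Log2 ratio of normalized signals for day 2 over day 0, day 139 over day 0 and day 139 over day 2, with 1 point per gene (its brightest detected probe) and a bar at the median of each list; the scales of the 3 panels differ. The neutrophil markers reached -4.44 on day 2, while on that day the tissue macrophage markers lay between -0.70 and 0.76 and the 8 iron recycling genes (red) between -1.72 and 0.13.

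The response to heme and oxidative stress was read from 18 genes of the transcription factors Nrf2 and Bach1, which are known to control Hmox1, and of their targets. All 18 were detected. For day 2 over day 0, 12 were lower and 6 higher, with a median log2 ratio of -0.33, and 1 was called. For day 139 over day 0, 16 were lower and 2 higher, with a median of -0.44 that was -0.04 under spike-in scaling, and 2 were called. Between day 2 and day 139, 0 of the 18 were called, with a median of -0.01 that turned to 0.37 under spike-in scaling. Beside these counts, 2.48% of all probes were called lower and 1.83% higher for day 2 over day 0. The shares lower and higher were 2.07% and 2.59% for day 139 over day 0, and 1.59% and 2.54% for day 139 over day 2.
The gene called on both days was Maff, a small Maf protein that pairs with Nrf2. It gave 202 on day 0, 47.9 on day 2 and 77.9 on day 139, with log2 ratios of -2.08 and -1.37 to day 0 and Z-scores of -3.49 and -2.13. Its signal was thus highest on day 0 and lowest on day 2, the order of Hmox1. With 3 arrays few orders are possible, and the share of all probes with this order was not counted. Srxn1, which repairs oxidized peroxiredoxins, gave 1574, 1061 and 739 and was called lower on day 139, at -1.09 with a Z-score only just past the limit.
Nfe2l2, which encodes Nrf2, had log2 ratios of -0.52 and -0.44 on days 2 and 139 over day 0, and Bach1, the heme-sensing repressor, had -0.40 and -0.16. Slc7a11, the cystine transporter, gave 39.9, 20.5 and 41.7 and was not called, with a log2 ratio of -0.96 on day 2. Among the highest log2 ratios of the list, Keap1 stood at 0.26 and Nqo1 at 0.22 on day 2 and Prdx1 at 0.07 on day 139. Gclc, of glutathione synthesis, had the lowest ratio for day 139 over day 2, at -0.84, and was not called.

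Each of the 8 genes was also set beside the genes whose 3 signals ran most like its own. Likeness was the Euclidean distance between the 3 log2 signals, each centered on its mean, among 6753 other genes well above background on all arrays with a mean signal of at least 500 (6754 for Cd163). Spic and Hmox1 had 0 genes within a distance of 0.2. The nearest to Spic were Psma6, St6galnac4 and Uqcrb, at 0.30, 0.32 and 0.32. The nearest to Hmox1 were Clec4n, Cp and Cxcr7, at 0.25, 0.26 and 0.26. Slc11a1 had 16 genes within 0.2, led by Akap12, Hilpda and Akap2. The other 5 genes had more neighbors within 0.2, with 154 for Cd163, 587 for Fth1, 1551 for Slc40a1, 1629 for Blvrb and 1997 for Ftl1. Those nearest to Cd163 were Tcn2, Scn3b and Alad, and those nearest to Fth1 were Srsf3, Tfpi and Epb4.1l3. For Slc40a1 they were Slc43a2, Gna13 and Parp14, for Blvrb Usp14, Nup37 and Atic, and for Ftl1 Spsb3, Rab8b and Rnasek. With 3 arrays such a likeness describes the order and size of 3 signals only.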

How the data were processed

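The authors deposited the scanner output of 3 one-color SurePrint G3 Mouse 8x60K arrays as intensities on a linear scale, and a table of their quantile normalized intensity values. The file headers name Feature Extraction 10.7.1.1, the submitters' processing notes and the paper 9.5.1.1. RNA kits differ between labels and paper. Here control and outlier-flagged spots were left out, spots of a probe averaged, and processed signals quantile normalized, floored at 1 and taken to log2; the deposited table served as an alternative. Quantile normalization hides a difference in total mRNA. Each gene was read by its brightest probe well above background on at least 1 array. The ratio and Z-score limits are those of the study; the Z-score formula is not given in the sources used here. Named were the 8 genes, called and extreme genes of the 2 pathway lists, the largest change of each marker list (1 such gene is not reported here) and the 3 nearest profiles; the signals of Vcam1, Csf1r, Tfrc, Ncoa4, Slc48a1, Hmox2, Blvra, Ltf, Nfe2l2, Bach1 and Mpo, Elane, Camp and Ngp were added after their values were seen. Genes and lists were chosen with earlier results of these data known. The calls were tried on simulated arrays with 200 planted 4-fold changes and noise with an SD of 0.3 on the log2 scale. Of the 200 changes, 195 to 200 were recovered, and 3.31% to 3.42% of unchanged probes were called. Smaller changes were not simulated, so the recovery of smaller changes was not tested. The 12 alternatives covered background correction, scaling, value source, filters, the Z-score, the probe choice and the floor. Software was numpy 2.4.6 and pandas 2.3.3 under Python 3.11.15, and for normexp limma 3.58.1 under R 4.3.3. With 3 arrays, their number limits the precision.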

Additional observations from a re-analysis of the deposited data

How the results depend on the processing

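No paired analysis was possible because each day has 1 array and no replicate. Over the 12 alternatives no result changed its direction while called. Of the 216 single log2 ratios of the 8 genes, 197 moved by less than the scanner error and 19 by more. The other detection filters and the raised floor could not alter these ratios, so their share of the 197 was fixed in advance. Under spike-in scaling all 8 genes moved by more than that error in both day 139 comparisons. The count of genes called for day 2 over day 0 fell from 3 to 2, by the loss of Slc11a1, under 75th percentile scaling and with 1 SD over all probes. The count for day 139 over day 0 fell from 2 to 1 with a Z-score window of 250 probes, to 0 with 1 SD over all probes and to 0 under spike-in scaling. The count for day 139 over day 2 fell from 1 to 0 under 75th percentile scaling and to 0 with 1 SD over all probes. Scaling to 8 spike-in controls, whose signal on day 139 was 65.8% of that on day 0, turned the median log2 ratio of the 8 genes to 0.035 for day 139 over day 0 and to 0.37 for day 139 over day 2. It moved the calls over all probes from 830 higher and 666 lower to 1531 and 376 for day 139 over day 0, and from 816 and 509 to 1646 and 245 for day 139 over day 2. A scaled median absolute deviation raised the calls over all probes to 1306 higher and 1584 lower for day 2 over day 0, from 588 and 796, to 1770 and 1731 for day 139 over day 0, and to 1605 and 1479 for day 139 over day 2. The sign of Slc40a1 for day 2 over day 0, between -0.10 and 0.03, depended on the setting, as did those of Blvrb, Fth1 and Ftl1 for day 139. Cd163, nearest to background, was the gene that the background correction moved by more than the scanner error. That correction adds an offset of 50 to every signal, which by itself shrinks the ratios of dim probes. The size of this part and the cause of the other shifts were not tested.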

Other observations

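The macrophages of the marginal zone, which border the red pulp, were read from 6 further markers. Marco, a scavenger receptor of marginal zone macrophages, gave 22779 on day 0, 16599 on day 2 and 9380 on day 139, and was called lower on day 139 than on day 0 at a log2 ratio of -1.28. Timd4, a receptor for dying cells, gave 216, 203 and 507 and was called higher on day 139 than on day 0, at 1.23, and than on day 2, at 1.32. Lyve1 gave 18.9, 54.0 and 33.1 and was called higher on day 2 than on day 0, at 1.51, from a dim signal. Cd5l, a secreted macrophage protein, Siglec1 and Cd209b were not called. The 6 markers ranged from -2.82 to 1.51 for day 2 over day 0 and from -0.82 to 2.56 for day 139 over day 2. Of the 6, 5 were well above background on all 3 arrays. The values of -2.82 and 2.56 belonged to the marker that was not. Marco and Timd4 thus differed in opposite directions on day 139 while none of the 18 red pulp and tissue macrophage markers was called.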
